A study of Saccharomyces cerevisiae with 10 samples.

Results

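Chromatin remodeler and histone modifier genes of budding yeast were followed at the open chromatin peaks assigned to them by nearest promoter. A list of 59 genes, chosen by systematic name, was taken to hold the enzymes that modify histones, the subunits of nucleosome remodelers, the silencing proteins and the histone chaperones. A peak of open chromatin was counted as a member where the gene of its nearest promoter, in the authors' annotation, was on the list. The rule found 29 member peaks of 27 genes among 3515 merged peaks, and 32 listed genes had no peak of their own. SIR1 and SPT16 each had a peak before the gene and a peak at its end, and these are called the promoter and the end peak.

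The study revived frozen cells of a laboratory evolution experiment on 5 days, days 0, 3, 7, 10 and 28, and 2 libraries of each day were analysed with ATAC-seq, which sequences the DNA that the Tn5 transposase can reach. In that experiment the cells with the lowest reporter expression were sorted out and regrown each day up to day 7, and grew without sorting from then to day 28. All groups share the strain WP35, a haploid MATalpha W303 wild type with the YFP gene under the GAL1 promoter at the HO locus (labelled HO::HIS3::pGAL1-YFP, with HIS5 as the marker in the methods) and with leu2, trp1, can1, ura3, ade2 and his3 alleles. All groups were also grown in the same medium, synthetic complete with 0.1% mannose and then with 0.1% mannose and 0.2% galactose. Day 0 is the population before selection, and all later days come from 1 evolution replicate, L3, so the p-values measure the spread between these libraries and not that between independently evolved populations.

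Nucleosomes, the units of DNA wrapped around histone proteins, block the access of other proteins to DNA. Acetyl and methyl groups on histone tails are added and removed by dedicated enzymes, and remodelers such as SWI/SNF and RSC use ATP to slide or evict nucleosomes, leaving an open stretch before most active yeast genes. Sir proteins keep the silent mating-type loci and the telomeres closed, and histone chaperones such as FACT and the HIR complex hand histones on and off DNA. The GAL genes are a textbook case in which SAGA, SWI/SNF and other members take part in activation. ATAC-seq at these genes reports how open the chromatin of their peaks is and not the activity of the proteins they encode.

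Promoter windows were read from the R64 assembly, from 250 bases before to 50 bases from the annotated gene start, which is the first coding base in that annotation. The windows shown are those of HOS1 and RTT109, which were among the member genes with the largest rises in normalized counts between days 7 and 10, and of 3 remodeler genes whose changes were called with and without a correction for peak level (ISW2, RSC1 and STH1). They are RTT109 at chrXII:146041-146340, ISW2 at chrXV:884264-884563, RSC1 at chrVII:601411-601710 and STH1 at chrIX:117742-118041 on the plus strand, and HOS1 at chrXVI:684304-684603 on the minus strand. Each is printed along its gene, with matches to the searched motifs in capitals.
HOS1: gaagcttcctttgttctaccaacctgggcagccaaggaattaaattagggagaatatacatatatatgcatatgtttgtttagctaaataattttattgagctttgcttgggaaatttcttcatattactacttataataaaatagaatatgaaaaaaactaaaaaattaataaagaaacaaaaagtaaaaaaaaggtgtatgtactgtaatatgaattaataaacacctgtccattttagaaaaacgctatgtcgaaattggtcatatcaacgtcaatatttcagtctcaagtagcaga
RTT109: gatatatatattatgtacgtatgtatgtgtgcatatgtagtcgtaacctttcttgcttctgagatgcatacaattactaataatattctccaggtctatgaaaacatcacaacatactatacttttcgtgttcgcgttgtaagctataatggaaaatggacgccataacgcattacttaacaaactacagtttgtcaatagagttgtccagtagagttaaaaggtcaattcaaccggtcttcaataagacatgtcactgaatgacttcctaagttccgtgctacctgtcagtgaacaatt
ISW2: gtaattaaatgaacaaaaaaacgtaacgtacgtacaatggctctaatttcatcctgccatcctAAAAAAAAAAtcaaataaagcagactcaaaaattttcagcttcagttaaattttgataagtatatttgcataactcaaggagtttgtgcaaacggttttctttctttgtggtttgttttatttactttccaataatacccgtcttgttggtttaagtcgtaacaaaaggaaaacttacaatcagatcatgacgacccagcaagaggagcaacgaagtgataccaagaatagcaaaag
RSC1: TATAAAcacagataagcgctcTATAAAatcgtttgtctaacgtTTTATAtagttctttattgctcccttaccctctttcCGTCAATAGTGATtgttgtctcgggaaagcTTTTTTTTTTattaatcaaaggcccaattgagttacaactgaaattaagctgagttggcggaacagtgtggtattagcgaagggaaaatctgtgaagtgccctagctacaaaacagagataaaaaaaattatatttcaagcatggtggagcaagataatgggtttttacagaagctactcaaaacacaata
STH1: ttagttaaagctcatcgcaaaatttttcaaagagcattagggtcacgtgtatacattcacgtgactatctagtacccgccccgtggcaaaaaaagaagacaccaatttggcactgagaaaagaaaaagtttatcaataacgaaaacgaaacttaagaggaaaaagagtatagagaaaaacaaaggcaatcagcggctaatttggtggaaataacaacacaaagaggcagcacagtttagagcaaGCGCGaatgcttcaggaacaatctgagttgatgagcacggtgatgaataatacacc
In ISW2 the capitals mark a run of A, and in STH1 an Rsc3 match (CGCGC) on the other strand next to the gene start. In RSC1 they mark 3 TATA matches, an Abf1 match and a run of A on the other strand. HOS1 and RTT109 held none of the searched motifs.

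Motifs were searched on both strands in these windows for all 27 genes and for 6001 protein-coding genes. The MCB (ACGCGT) was in 3 member windows, those of DOT1, SET1 and SPT21 (11.1%, against 3.07% of all windows). Matches to the Rsc3 motif (CGCGC) were in 4, those of STH1, SNF6, HIR2 and HST2 (14.8% against 10.7%). Both motifs hold the letters CGCG, but their matches cannot overlap, since the MCB begins with A and ends with T. Abf1, searched by its consensus, was in 7 member windows (25.9% against 10.3%), and a run of 10 A was in 7 (25.9% against 16.3%). TATAAA was in 6 (22.2% against 45.2%), the Reb1 motif (TTACCCG) in 1, that of HST4 (3.70% against 7.08%), and the Gal4 motif, searched by its consensus, in 0 of the 27 (1.35% of all windows).

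By complex, a peak was found for 2 of 4 Sir genes, 2 of 4 Hst sirtuin genes, 5 of 8 deacetylase complex genes, 3 of 4 histone methylation genes, 4 of 7 SAGA genes and 1 of 3 other acetyltransferase genes. Among remodelers a peak was found for 2 of 6 SWI/SNF genes, 3 of 10 RSC genes, 1 of 3 ISWI and Chd1 genes, and 0 of the 2 genes INO80 and SWR1. Of 8 genes for histone chaperones, histone gene regulators and the TATA-binding protein, 4 had a peak. The ATPase genes SNF2, INO80, SWR1 and ISW1 and the acetyltransferase gene GCN5 thus drop out under the rule. Of the 32 genes without a peak, 22 have their annotated start inside a peak that was assigned to a neighbour, such as SIR4 in the peak of the histone gene HTA1, and 10 have it in no peak (HDA2, HOS3, SPT7, ESA1, SNF12, SWI1, RSC8, CHD1, SPT6 and SPT15).

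The authors annotated 25 member peaks as promoter or transcription start (86.2%, against 85.4% of all peaks), the SPT8 and SNF6 peaks as exon, and the end peaks of SIR1 and SPT16 as transcription end. Member peaks were between 286 and 4076 bp long, with a median of 827 bp against 868 bp over all peaks. Their median GC content was 38.9% against 38.4%. The annotated start of the member gene lay inside 26 of the 29, and 14 also held the start of another gene, so that reads there cannot be assigned to the member alone. The HST2, SPT3, SPT8 and SNF6 peaks ran through the whole coding region, and the SPT3 peak held 4 other gene starts. None of the 100-base windows tested along the member peaks occurred elsewhere in the reference genome.

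**Figure D1:**
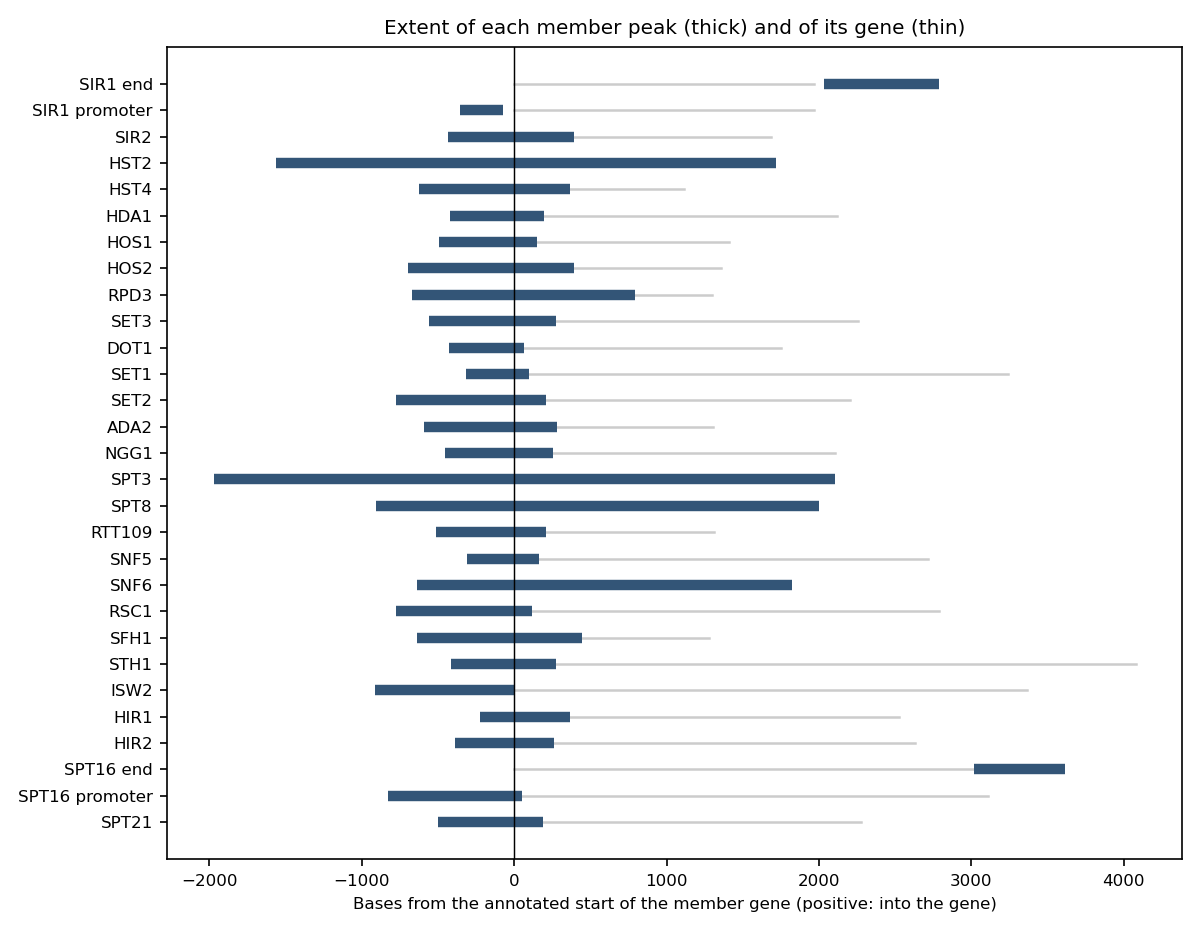
Extent of the 29 member peaks (thick bars) and of their genes (thin grey bars), in bases from the annotated start of the gene at 0, with positive values running into the gene. Most peaks span the gene start, the end peaks of SIR1 and SPT16 lie at the far end of the gene, and the peaks of HST2, SPT3, SPT8 and SNF6 run past the gene's end.

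Libraries held from 4748625 to 18693542 counts in peaks, of which member peaks took 0.618% to 0.723%, and the lowest count of a member peak in a library was 315. The libraries of days 3 and 28 and 1 of day 10 were sequenced in 2 runs, so that day and number of runs cannot be told apart except on day 10. On every day the spread between replicates exceeded counting noise, with a chi-square per peak from 6.17 on day 7 to 25.8 on day 0. Levels are given as the authors' normalized counts, in which each library's counts carry a single size factor. Pairs of days were tested with the quasi-likelihood test of edgeR after TMM scaling, which sets a common scale from the bulk of the peaks, and a peak was called at a Benjamini-Hochberg adjusted p under 0.05 over all peaks. In several comparisons the change of a peak went with its level. The same test was therefore repeated after a loess correction on peak abundance, and both values are given. The correction follows the mean count of a peak, which also grows with its length, and not its level per kb. Whether it removes the trend with level per kb was not tested. The standard error of a log2 fold change is written SE.

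Over the 5 days, 20 of the 29 member peaks differed between days (edgeR's F test), a share close to the 71.2% of all peaks that did, and 19 did after loess (61.7% of all peaks). The ratio of the highest to the lowest day mean ran from 1.07 at HST4 to 1.86 at HIR1, with a median of 1.28 against 1.31 over all peaks. Day 10 had the highest mean for 11 member peaks (25.6% of all peaks) and the lowest for 9 (30.7%), and day 7 had the highest for 6 (28.6%) and the lowest for 10 (30.6%). Per kb of peak, the levels averaged over days ran from 1221 normalized counts per kb at HOS1 to 5789.9 at SNF6. The 4 lowest were HOS1 (1221), the SPT16 end peak (1229.8), RTT109 (1279) and HIR1 (1306), and these sat at percentiles 1.39 to 3.02 of all peaks by level per kb. Their ratios between days were 1.55 to 1.86, and that of SNF6, the strongest member peak per kb, was 1.61. The authors' peak caller found HIR1 and RTT109 on days 10 and 28 only, HOS1 on days 0 and 10 only and the SPT16 end peak on day 0 only, while 23 member peaks were found on all days (79.3%, against 77.1% of all peaks). A peak enters the merged set through the days on which it was found. For HIR1, RTT109, HOS1 and the SPT16 end peak, differences between days with and without a call are partly fixed by that entry. Their fold changes and p-values for such days are a description and are not read as support.

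**Figure D2:**
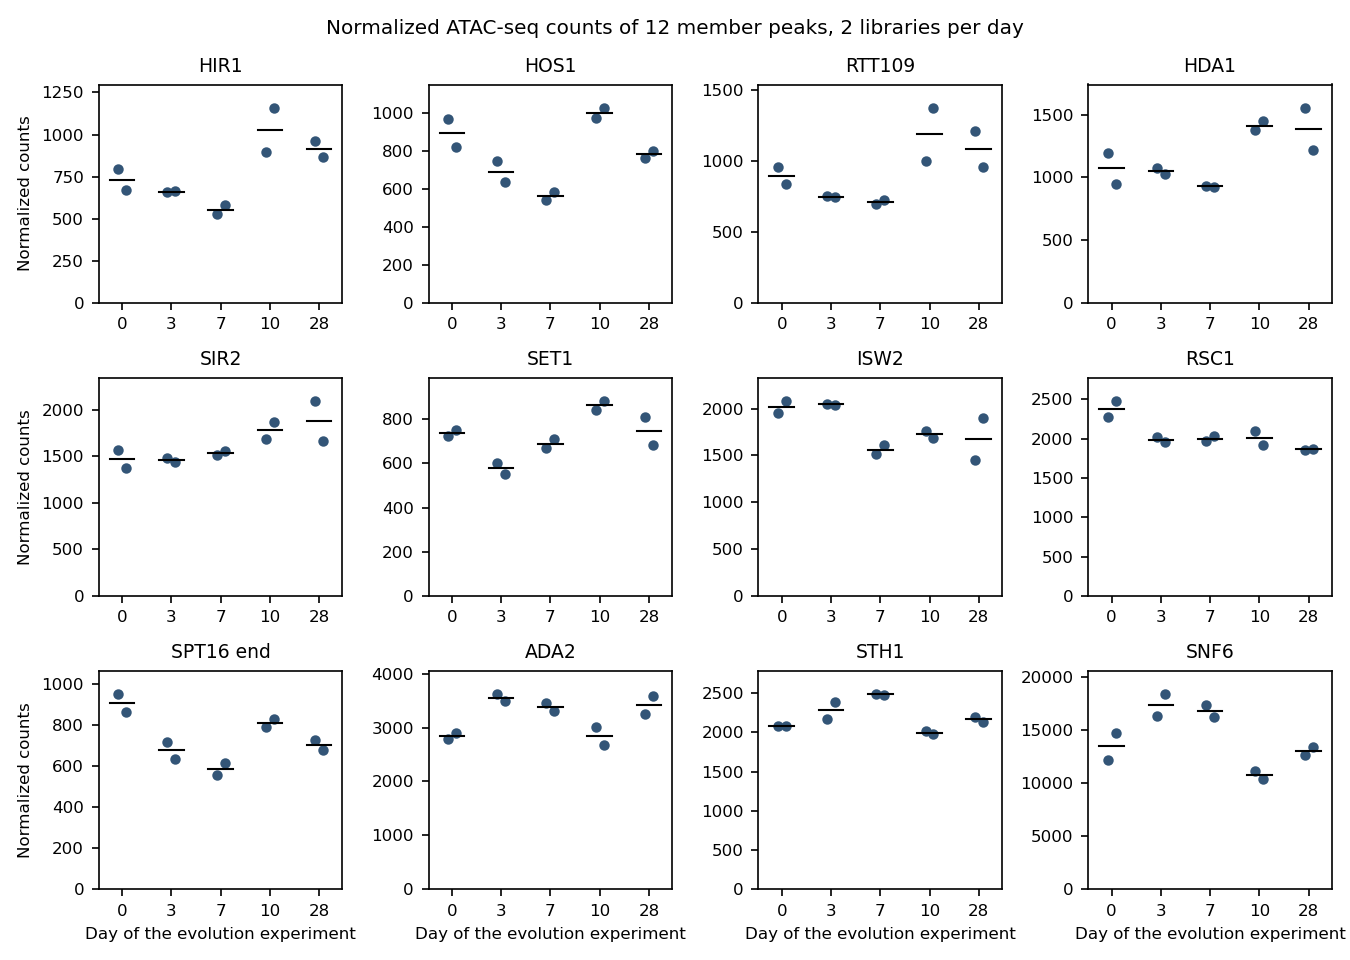
Normalized counts (vertical axes, from 0) of 12 member peaks on the 5 days, with 1 point per library and a bar at the mean of the 2 libraries. HIR1, HOS1, RTT109 and HDA1 were lowest on day 7 and highest on day 10, RSC1 fell after day 0, and ISW2 fell between days 3 and 7.

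From day 0 to day 3, 5 of 29 member peaks were called (17.2%, close to the 18.6% of all peaks). ADA2 was the 1 member that rose (9.59% of all peaks did), and HOS1, RSC1, SET1 and the SPT16 end peak were the 4 that fell (8.99% of all peaks). After loess 3 were called (11.5% of all peaks), with ADA2 higher (6.57% of all peaks) and RSC1 and SPT3 lower (4.89%). The libraries of the 2 days did not overlap at 20 member peaks, and at 64.6% of all peaks. The count was 1 without day 0 replicate 1, 3 without day 3 replicate 1 and 1 without day 3 replicate 2. Over all 3515 peaks it was 237, 402 and 120 in the same order, against 653 with none left out. With scaling by total counts, which moved the median over all peaks to -0.21 on the log2 scale, 8 members were lower and 0 higher, where 24.5% of all peaks were lower and 5.69% higher.

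Between days 3 and 7, 3 member peaks were called (10.3%, against 32.1% of all peaks), and HOS1, ISW2 and SPT8 were all lower (17.4% of all peaks were lower, 14.7% higher). After loess 5 were called (36.0% of all peaks), with HST2 and SET1 higher (16.8%) and HDA1, ISW2 and SPT8 lower (19.2%). At 20 member peaks the days did not overlap, and at 64.6% of all peaks. The median absolute log2 fold change was 0.094 over the members and 0.12 over all peaks. The count was 5 without day 3 replicate 1, 9 without day 3 replicate 2, and 1 without either day 7 replicate. Over all 3515 peaks it was 1426, 1398, 404 and 417 in the same order, against 1128 with none left out.

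Between days 7 and 10, when sorting had stopped, 18 member peaks were called (62.1%, against 70.2% of all peaks). Of the members 12 were higher, as were 37.4% of all peaks, and 6 were lower, as were 32.8%. HIR1, HOS1, RTT109 and HDA1 rose most, followed by the SPT16 end peak, SPT21, SNF5, SFH1, SET1, SIR2, HIR2 and ISW2, and the peaks of SNF6, HST2, STH1, NGG1, ADA2 and the end of SIR1 fell. HIR1, HOS1 and RTT109 were found as peaks on day 10 and not on day 7, so their rises are partly fixed by that. After loess 15 were called (59.9% of all peaks), 10 higher (29.8% of all peaks) and 5 lower (30.1%). The 10 were HIR1, SPT8, RTT109, HOS1, HDA1, SPT3, SFH1, SPT21, SNF6 and HST2, of which SNF6 and HST2 were lower with TMM and SPT8 and SPT3 were not called with it. The 5 were NGG1, STH1, both SIR1 peaks and the SPT16 promoter peak. The days did not overlap at 25 member peaks, and at 88.4% of all peaks. With scaling by total counts, which moved the median of all peaks to 0.36, 21 were higher and 1 lower, where 65.5% of all peaks were higher and 16.5% lower. The count was 8 without day 7 replicate 1. Over all 3515 peaks it was 1654 without that library, against 2467 with none left out.

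Between days 10 and 28, 0 member peaks were called with edgeR, where 0.0% of all peaks were, and 0 with DESeq2. At an unadjusted p under 0.05 (edgeR) there were 2, ADA2 and HOS1, and 3 after loess. The share of all peaks at that threshold was not counted, so nothing is read from these counts. The log2 fold changes ran from -0.38 at HOS1 to 0.25 at SNF6, and 13 member peaks did not overlap between the days (36.0% of all peaks). Day 28 replicate 1 had the fewest counts of the 10 libraries.

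Set against day 0, 13 member peaks were called on day 7 (44.8%, close to the 45.1% of all peaks), with HST2, STH1, ADA2 and the end of SIR1 higher (20.5% of all peaks) and 9 lower (24.6%). After loess 12 were called (35.7% of all peaks), 5 higher (17.9%) and 7 lower (17.8%), and 21 member peaks did not overlap between these days (78.6% of all peaks). The count was 3 without day 7 replicate 1 and 6 without day 7 replicate 2. Over all 3515 peaks it was 387 and 601 in the same order, against 1585 with none left out. On day 28 only RSC1 was called with TMM, lower than on day 0, while 8.82% of all peaks were called, 4.52% higher and 4.3% lower. This TMM count of 1 became 0 without day 0 replicate 2 and with DESeq2, 3 without day 0 replicate 1, 2 without day 28 replicate 1 and 5 without day 28 replicate 2. Over all 3515 peaks the count of 310 became 32, 253, 298, 126 and 742 in the same order. After loess 4 were called (10.8% of all peaks), with ADA2 and SPT8 higher (4.98%) and RSC1 and the SPT16 end peak lower (5.86%), and 17 member peaks did not overlap (55.0% of all peaks).

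**Figure D3:**
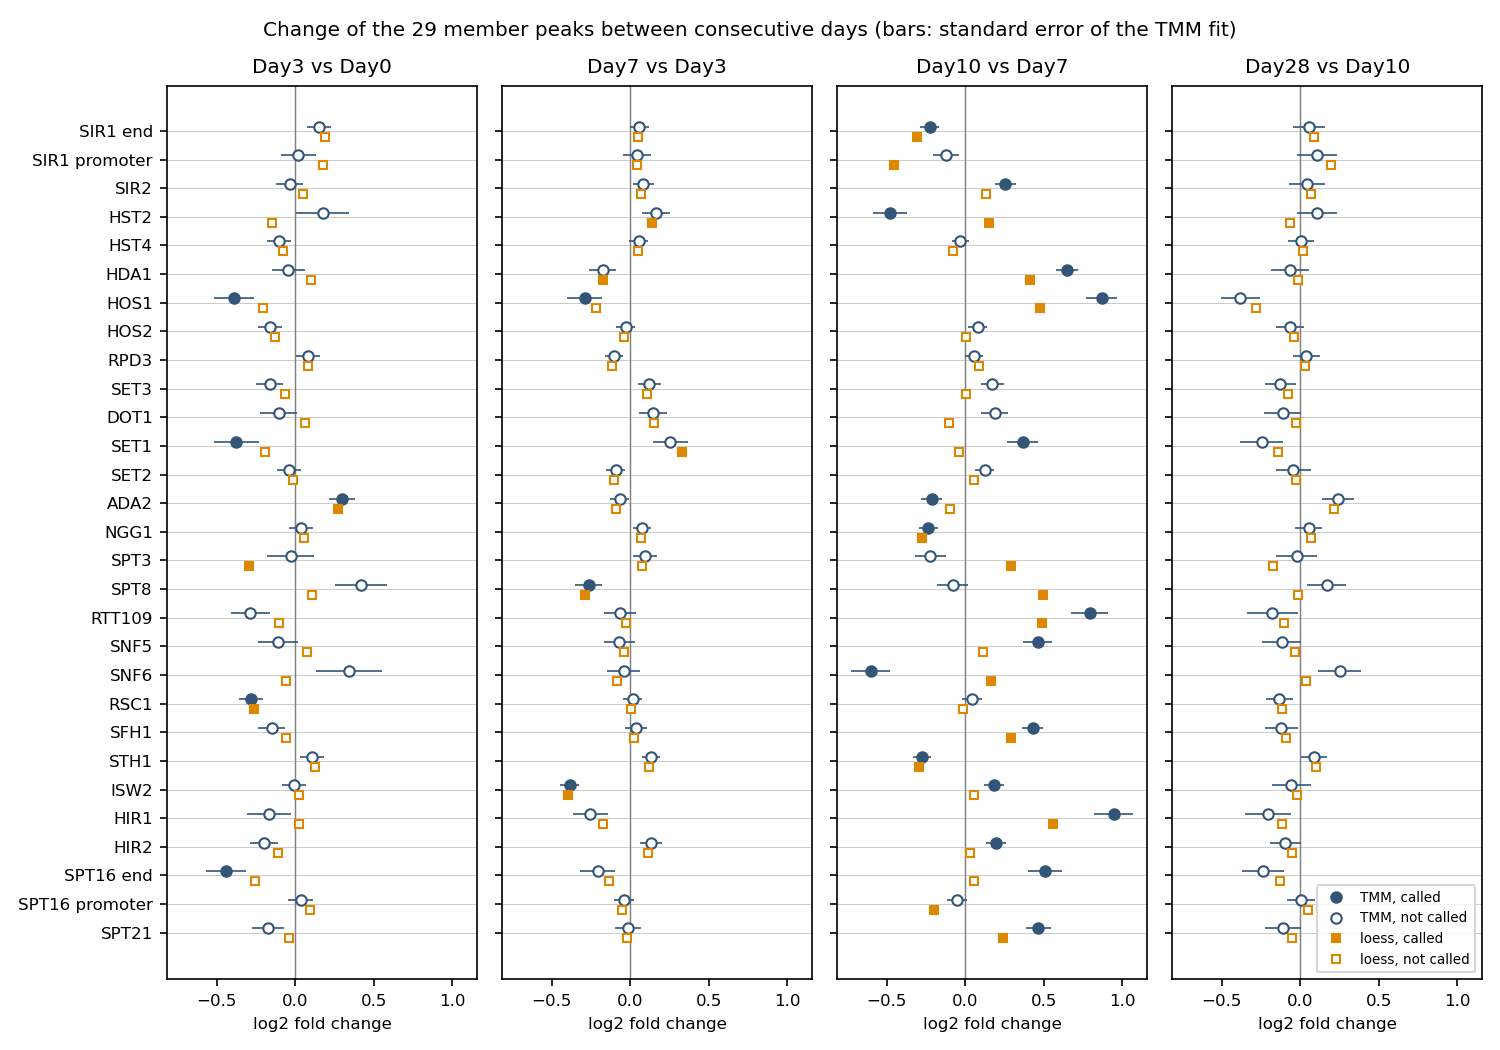
Log2 fold change (horizontal axes) of the 29 member peaks between consecutive days, with TMM scaling (circles, bars show the standard error) and after loess on peak abundance (squares). Filled symbols were called at an adjusted p under 0.05 and open ones were not. The rises between days 7 and 10 reach 0.94 at HIR1 with TMM and 0.56 after loess.

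The Sir proteins and the sirtuins remove acetyl groups from histones or anchor the silencing complex. SIR2 (YDL042C), the NAD-dependent deacetylase of silent chromatin, had a peak on chromosome IV from 378055 to 378881. Its libraries held 1563 and 1377 normalized counts (day 0), 1476 and 1433 (day 3), 1513 and 1558 (day 7), 1689 and 1865 (day 10), and 2091 and 1666 (day 28). Day 10 did not overlap with day 7 and was higher, and the day 28 libraries were far apart. The rise between days 7 and 10 had a log2 fold change of 0.25 (SE 0.065, edgeR adjusted p = 0.00291), and after loess it was 0.13 and not called (adjusted p = 0.0879).

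SIR1 helps to set up silencing at the mating-type loci. Its end peak, on chromosome XI from 642571 to 643329, covers an annotated origin of replication. It held 1787 and 1773 normalized counts (day 0), 2048 and 1969 (day 3), 2157 and 2008 (day 7), 1772 and 1697 (day 10), and 1680.2 and 1974 (day 28). Days 3 and 7 were above days 0 and 10 with no overlap. Its log2 fold change was 0.20 between days 0 and 7 (edgeR adjusted p = 0.00999) and -0.23 between days 7 and 10 (adjusted p = 0.00336), and both were called after loess, at 0.24 and -0.30. The shorter SIR1 promoter peak had a log2 fold change of -0.12 between days 7 and 10 with TMM, not called, and of -0.45 after loess (edgeR adjusted p = 0.00042).

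HST2 encodes a sirtuin found mainly outside the nucleus, and its peak of 3277 bp also holds the start of CIP1. Its libraries held 9109 and 9897 normalized counts (day 0), 10005 and 11818 (day 3), 12544 and 11802 (day 7), 8736 and 8254 (day 10), and 9733 and 8887 (day 28). Day 7 was above days 0, 10 and 28 with no overlap, and day 10 was below every other day. The log2 fold change between days 7 and 10 was -0.48 with TMM (SE 0.11, edgeR adjusted p = 0.00105) but 0.15 after loess (adjusted p = 0.0283), so its direction depends on the correction for level. The rise between days 0 and 7 was 0.34 with TMM (adjusted p = 0.0492) and -0.02 after loess, and it was not called without either day 7 replicate, or with total counts, DESeq2 size factors or a stricter filter. The fall between days 7 and 10 was not called without day 7 replicate 1 (edgeR adjusted p = 0.0787) or with total counts (adjusted p = 0.0572). HST4, which with HST3 deacetylates lysine 56 of histone H3, was called in no comparison, and its day means ran from 1993 ± 37.5 (SD, n = 2) on day 10 to 2139 ± 117 (SD, n = 2) on day 0.

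Of the deacetylase complex genes, HDA1 and HOS1 rose between days 7 and 10 and RPD3, HOS2 and SET3 were not called there. HOS1 (YPR068C), a class I deacetylase known to act on the cohesin subunit Smc3, had a peak of 642 bp on chromosome XVI from 684204 to 684845, which covers its promoter and an annotated origin of replication. The libraries held 965 and 818 normalized counts (day 0), 743 and 634 (day 3), 541 and 584 (day 7), 970.2 and 1024 (day 10), and 759 and 799 (day 28). Levels stepped down from day 0 to day 3 and to day 7 without overlap, and both day 10 libraries were above every library of the other days. The HOS1 peak entered the set through days 0 and 10 only, so its contrasts with days 3 and 7 are partly fixed. HOS1 had a log2 fold change of -0.39 between days 0 and 3 (SE 0.13, edgeR adjusted p = 0.0179), -0.29 between days 3 and 7 (0.11, adjusted p = 0.0358) and 0.87 between days 7 and 10 (0.10, adjusted p = 6.22e-06). After loess only the last of these was called, at 0.47 (adjusted p = 0.000373), while the fall between days 0 and 7 was called both with TMM, at -0.68 (SE 0.11, adjusted p = 0.000571), and after loess, at -0.43 (adjusted p = 0.00388). The fall between days 0 and 3 was not called without day 0 replicate 1 (adjusted p = 0.315) or day 3 replicate 2 (adjusted p = 0.409), and that between days 3 and 7 was not called without day 3 replicate 1 or either day 7 replicate, or with DESeq2 (adjusted p = 0.0782), total counts or all 10 libraries in 1 fit.

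HDA1 (YNL021W), the catalytic subunit of its complex, had a peak on chromosome XIV from 592805 to 593422 that also holds the start of RCM1. The libraries held 1195 and 946 normalized counts (day 0), 1074 and 1029 (day 3), 931 and 925 (day 7), 1376 and 1447 (day 10), and 1553 and 1218 (day 28). Day 10 was above day 7 with no overlap, by a log2 fold change of 0.65 (SE 0.072, edgeR adjusted p = 4.78e-06), and of 0.41 after loess (adjusted p = 0.000331). RPD3, the catalytic subunit of the Rpd3L and Rpd3S complexes, held 2435 and 2588 normalized counts (day 0), 2762 and 2637 (day 3), 2539 and 2466 (day 7), 2488 and 2563 (day 10), and 2576 and 2702 (day 28), and was called in no comparison. HOS2, the deacetylase of the Set3 complex, held 2139 and 2070.2 normalized counts (day 0), 1936 and 1888 (day 3), 1808 and 1925 (day 7), 1872 and 1961 (day 10), and 1798 and 1934 (day 28). Day 0 was above each later day with no overlap, and HOS2 was called once, between days 0 and 7, at a log2 fold change of -0.20 (edgeR adjusted p = 0.0121) and -0.16 after loess (adjusted p = 0.0398). Its partner SET3 was not called, with a log2 fold change of 0.17 between days 7 and 10 (edgeR adjusted p = 0.0515).

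The 3 histone methyltransferase genes act on different lysines of histone H3. SET1 (YHR119W), the enzyme of COMPASS that methylates lysine 4, had a peak of 413 bp on chromosome VIII from 345725 to 346137. The libraries held 726 and 752 normalized counts (day 0), 603 and 554 (day 3), 668 and 711 (day 7), 843 and 882 (day 10), and 810.1 and 683 (day 28). Day 3 was the lowest and day 10 the highest, with no overlap with any other day. Between days 0 and 3 the log2 fold change was -0.38 (SE 0.14, edgeR adjusted p = 0.0474), and it was not called after loess (-0.19), with DESeq2 size factors or a stricter filter on low counts, or when any 1 of the 4 libraries was left out (adjusted p from 0.125 to 0.426). Between days 7 and 10 it was 0.36 (adjusted p = 0.0041) and -0.04 after loess. SET2, which methylates lysine 36, held 2021 and 2019.9 normalized counts (day 0), 2063 and 1921 (day 3), 1831 and 1894 (day 7), 1910.5 and 2032 (day 10), and 1736 and 2141 (day 28). It was called with TMM between days 0 and 7 only, at a log2 fold change of -0.14 (edgeR adjusted p = 0.041), and after loess that was -0.10 and not called (adjusted p = 0.121). DOT1, which methylates lysine 79, held 997 and 856 normalized counts (day 0), 891 and 857 (day 3), 955 and 967 (day 7), 997 and 1124 (day 10), and 1041 and 966 (day 28). It was not called with TMM, and between days 0 and 7, where the libraries overlapped, its log2 fold change was 0.03 with TMM and 0.22 after loess, where it was called (edgeR adjusted p = 0.0322).

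SAGA is a coactivator that acetylates histones and delivers the TATA-binding protein. Its ADA2 and NGG1 subunits belong to the acetylation module with Gcn5, and SPT3 and SPT8 contact the TATA-binding protein. ADA2 (YDR448W), whose peak on chromosome IV from 1355470 to 1356343 also holds the start of the ribosomal protein gene RPS17B, held 2787 and 2908 normalized counts (day 0), 3620.4 and 3502 (day 3), 3462 and 3306 (day 7), 3014 and 2682 (day 10), and 3249.7 and 3586 (day 28). Days 3, 7 and 28 were above day 0 with no overlap, and day 10 overlapped day 0. ADA2 rose by day 3 with a log2 fold change of 0.30 (SE 0.083, edgeR adjusted p = 0.0049) and 0.27 after loess (adjusted p = 0.025). It was not called with total counts (adjusted p = 0.301), nor without day 0 replicate 1 (adjusted p = 0.0753) or day 3 replicate 1 (adjusted p = 0.0542). On day 7 it was 0.23 above day 0 (SE 0.054, adjusted p = 0.00578) and 0.19 after loess (adjusted p = 0.0183), and it was not called with total counts or without day 7 replicate 1 (adjusted p = 0.178). Between days 7 and 10 it was -0.21 (adjusted p = 0.0104), and it was not called after loess.

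NGG1 fell between days 7 and 10, from 2371 and 2297 to 2017 and 1852 normalized counts, with no overlap between the days. Its log2 fold change was -0.23 (edgeR adjusted p = 0.00276) and -0.27 after loess (adjusted p = 0.00344). SPT8, whose peak also holds the start of ERG3, held 8161 and 8415 normalized counts (day 0), 10349 and 12149 (day 3), 9531 and 9093 (day 7), 8580.0 and 8562 (day 10), and 9791 and 9840.5 (day 28). The day 3 libraries were above those of all other days, and far from each other. SPT8 had a log2 fold change of -0.27 between days 3 and 7 (edgeR adjusted p = 0.0122) and -0.29 after loess (adjusted p = 0.000662), but it was not called without day 3 replicate 2 or either day 7 replicate, or with all 10 libraries in 1 fit. SPT8 had -0.08 between days 7 and 10 with TMM, not called, and 0.49 after loess (adjusted p = 0.000129). SPT3, with a peak of 4076 bp, was not called with TMM, and its log2 fold change between days 7 and 10 was -0.22 with TMM and 0.29 after loess (edgeR adjusted p = 0.000836).

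RTT109 (YLL002W), which acetylates lysine 56 of histone H3 on new histones, had a peak on chromosome XII from 145775 to 146497. The libraries held 955 and 838 normalized counts (day 0), 749.6 and 743 (day 3), 696 and 726 (day 7), 999.97 and 1374 (day 10), and 1209 and 957 (day 28). Day 10 was above days 0, 3 and 7 with no overlap, although its replicates lay far apart. The log2 fold change between days 7 and 10 was 0.79 (SE 0.12, edgeR adjusted p = 4.89e-05) and 0.49 after loess (adjusted p = 0.00348). RTT109 was found as a peak on days 10 and 28 only, so this rise is partly fixed by how it entered the set. Day 7 stood at -0.35 against day 0 (adjusted p = 0.0121) and -0.13 after loess, where it was not called.

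Among the remodelers, ISW2 and RSC1 changed on different days. ISW2 (YOR304W), the ATPase of an ISWI complex that moves nucleosomes toward promoters, had a peak of 921 bp on chromosome XV from 883601 to 884521 that ends just past the gene start and holds no other gene start. The libraries held 1956 and 2081 normalized counts (day 0), 2048 and 2044 (day 3), 1511 and 1608 (day 7), 1759 and 1689 (day 10), and 1449 and 1899 (day 28). Both day 7 libraries were below all those of days 0, 3 and 10, and the day 28 libraries spanned the values of days 7 and 10. ISW2 fell between days 3 and 7 by a log2 fold change of -0.39 (SE 0.063, edgeR adjusted p = 6.85e-07) and -0.40 after loess (adjusted p = 0.000165), and it was called under each normalization, filter and test tried and with each library left out. Between days 7 and 10 it was 0.18 (adjusted p = 0.0162) and 0.06 after loess, where it was not called.

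RSC1 (YGR056W), a bromodomain subunit of RSC, had a peak on chromosome VII from 600885 to 601775 with no other gene start. The libraries held 2279 and 2479 normalized counts (day 0), 2024 and 1952 (day 3), 1971 and 2033 (day 7), 2099 and 1922 (day 10), and 1860.3 and 1867 (day 28). Day 0 was above each later day with no overlap, and days 3, 7 and 10 overlapped. Against day 0 its log2 fold change was -0.28 on day 3 (SE 0.076, edgeR adjusted p = 0.0034), -0.27 on day 7 (0.055, adjusted p = 0.00211) and -0.35 on day 28 (0.088, adjusted p = 0.0213). After loess these were -0.26, -0.25 and -0.36, all called. With TMM the fall to day 3 was not called without day 3 replicate 2. The 3 comparisons share the day 0 libraries, and the fall to day 28 was not called without day 0 replicate 2 (adjusted p = 0.507), with total counts (adjusted p = 0.0794) or with DESeq2 (adjusted p = 0.0659).

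STH1, the ATPase of RSC, had a peak on chromosome IX from 117574 to 118269 that also holds the start of RRT14. The libraries held 2085 and 2081 normalized counts (day 0), 2167 and 2394 (day 3), 2486 and 2482 (day 7), 2021 and 1975 (day 10), and 2202 and 2132 (day 28). Day 7 was above all other days and day 10 below all others, with no overlap. STH1 had a log2 fold change of 0.23 between days 0 and 7 (SE 0.049, edgeR adjusted p = 0.00293) and -0.28 between days 7 and 10 (0.056, adjusted p = 0.000502), and after loess 0.25 and -0.30, both called. With total counts the second was 0.04 (adjusted p = 0.598), and the first was 0.02 (adjusted p = 0.82) and was also not called without day 7 replicate 1 (adjusted p = 0.0785) or day 7 replicate 2 (adjusted p = 0.0547). SFH1, the RSC counterpart of Snf5, moved the other way between days 7 and 10, from 1352 and 1372 to 1669 and 1885 normalized counts, a log2 fold change of 0.43 (edgeR adjusted p = 8.06e-05) and of 0.29 after loess (adjusted p = 0.00375).

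SNF5 and SNF6, core subunits of SWI/SNF, had opposite signs between days 7 and 10. SNF5 went from 724 and 767 to 955 and 1037 normalized counts, a log2 fold change of 0.46 (edgeR adjusted p = 0.000423) and of 0.11 after loess, where it was not called. SNF6, whose peak also holds the start of RIM4, held 12156 and 14736 normalized counts (day 0), 16288 and 18348 (day 3), 17305 and 16177 (day 7), 11118 and 10342 (day 10), and 12659.6 and 13359.9 (day 28). For both genes days 7 and 10 did not overlap. The log2 fold change of SNF6 was -0.60 (SE 0.12, edgeR adjusted p = 0.000493) but 0.17 after loess (adjusted p = 0.019), and with TMM it was not called without day 7 replicate 1 (adjusted p = 0.0514).

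Of the 5 peaks of histone chaperones and histone gene regulators, 4 rose between days 7 and 10, at HIR1, HIR2, SPT21 and the end of SPT16, where 37.4% of all peaks rose, with a median log2 fold change of 0.47 against 0.04 over all peaks. After loess 2 were higher and 1 lower (29.8% and 30.1% of all peaks), with a median of 0.05. HIR1 (YBL008W), a subunit of the HIR complex that deposits histones and represses histone genes, was read at a peak of chromosome II, 209427 to 210021, with no other gene start. The libraries held 794 and 667 normalized counts (day 0), 660.3 and 661 (day 3), 526 and 578 (day 7), 894 and 1158 (day 10), and 960.1 and 869 (day 28). Days 10 and 28 were above all earlier libraries, and day 7 was below all others. The log2 fold change between days 7 and 10 was 0.94 (SE 0.12, edgeR adjusted p = 1.36e-05) and 0.56 after loess (adjusted p = 0.000752). HIR1 was found as a peak on days 10 and 28 only, so this rise is partly fixed by how it entered the set. Day 7 against day 0 gave -0.43 (adjusted p = 0.0118) and -0.13 after loess, and it was not called after loess or without either day 7 replicate.

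Its partner HIR2 went from 1407 and 1435 normalized counts on day 7 to 1550.4 and 1608 on day 10, with no overlap, a log2 fold change of 0.19 (edgeR adjusted p = 0.0121) and of 0.03 after loess. SPT21, which activates histone genes, went from 1017 and 1064 to 1300.4 and 1485, with no overlap, a log2 fold change of 0.47 (edgeR adjusted p = 0.000124) and of 0.24 after loess (adjusted p = 0.0112). SPT16 encodes a subunit of FACT, which loosens and rebuilds nucleosomes during transcription, and its 2 peaks differed. The means of the promoter peak ran from 1532 ± 36.1 (SD, n = 2) on day 10 to 1687 ± 12.1 (SD, n = 2) on day 3. The end peak, on chromosome VII from 101984 to 102582, held 949.9 and 865 normalized counts (day 0), 718 and 637 (day 3), 556 and 617 (day 7), 789 and 829.7 (day 10), and 727 and 678 (day 28). Its day 0 libraries were above those of all other days and its day 7 libraries were below them.

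For the SPT16 end peak the log2 fold change was -0.44 between days 0 and 3 (SE 0.13, edgeR adjusted p = 0.00678), -0.65 between days 0 and 7 (0.10, adjusted p = 0.000532) and 0.51 between days 7 and 10 (0.11, adjusted p = 0.000873). After loess these were -0.26, -0.41 and 0.05, and of them only the fall between days 0 and 7 was called (adjusted p = 0.0041). The fall between days 0 and 3 was not called without day 0 replicate 1 (adjusted p = 0.129) or day 3 replicate 2 (adjusted p = 0.261). The SPT16 end peak entered the set through day 0 only, so its falls from day 0 are partly fixed by that.

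In 4 of the 6 comparisons the change of a member peak went with its level. The correlation across the 29 peaks of log2 fold change with log2 level per kb was 0.80 between days 0 and 3, -0.85 between days 7 and 10, 0.88 between days 10 and 28 and 0.81 between days 0 and 7. It was 0.25 between days 3 and 7 and 0.04 between days 0 and 28. In the same order it was 0.70, -0.75, 0.73, 0.71, 0.19 and -0.23 over all 3515 peaks. After loess on peak abundance, 15 member peaks were called between days 7 and 10 (59.9% of all peaks were). HIR1, HOS1 and RTT109 were among them and were still higher on day 10. All were found as peaks on day 10 and not on day 7, so nothing is read from this. SNF6 changed sign, from -0.60 with TMM to 0.17 after loess. The correlations are across peaks, which share the same libraries and are not replicates. The comparisons of days 0 and 3 and of days 7 and 10 share no library. ADA2, SET1, HOS1 and the SPT16 end peak were called in both, and all 4 had opposite directions in them, as did 85.6% of the 487 peaks called in both over the whole genome. The falls of HOS1 (found as a peak on days 0 and 10 only) and the SPT16 end peak (day 0 only) are partly fixed.

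**Figure D4:**
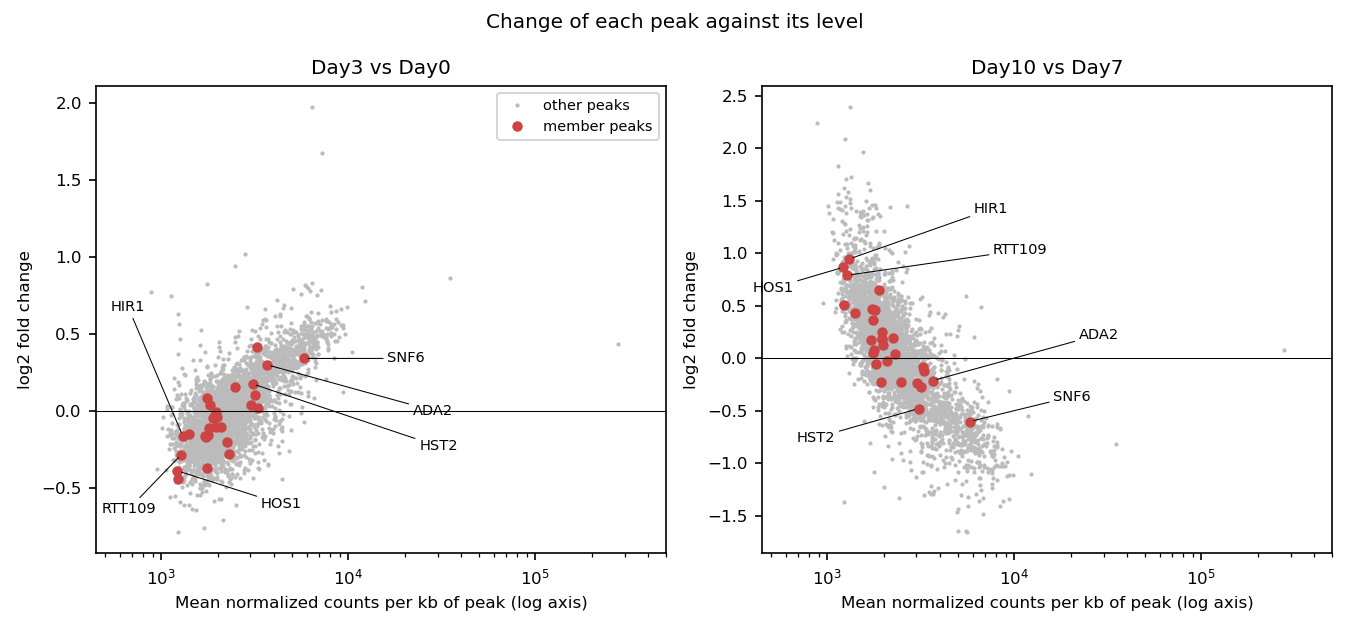
Log2 fold change with TMM (vertical axes) against the mean normalized counts per kb of peak (horizontal log axes) for 29 member peaks (red) and the other peaks (grey), between days 0 and 3 and between days 7 and 10. Across the member peaks the correlation of the axes is 0.80 between days 0 and 3 and -0.85 between days 7 and 10, against 0.70 and -0.75 over all peaks.

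Other peaks around the same machinery were counted too. For the 22 listed genes without a peak whose start lies in a neighbour's peak, 7 of those peaks were higher (those at SIR3, HST1, SWI3, RSC4, RSC6, INO80 and SPT10) and 9 lower between days 7 and 10, where 37.4% of all peaks were higher and 32.8% lower. After loess 12 were higher and 4 lower, against 29.8% and 30.1% of all peaks. Values follow for SWR1, GCN5, SNF2, INO80 and ISW1, the genes named above as left out by the rule. SWR1, the ATPase that exchanges histone H2A.Z into nucleosomes, starts in the peak of RQC1 on chromosome IV from 1135289 to 1135937. That peak had a log2 fold change of 0.21 between days 3 and 7 (edgeR adjusted p = 0.00338) and of -0.45 between days 7 and 10 (adjusted p = 1.78e-05), with 0.20 and -0.47 after loess, both called. GCN5, the SAGA acetyltransferase, starts in the peak of NOP19, which had 0.26 between days 3 and 7 (edgeR adjusted p = 0.000283) and -0.27 between days 7 and 10 (adjusted p = 0.00118), both also called after loess. The peak at the start of SNF2, the SWI/SNF ATPase, had -0.21 between days 7 and 10 (edgeR adjusted p = 0.0119) and -0.01 after loess. INO80, the ATPase of its own complex, starts in the peak of ARO2, which had 0.20 between these days (edgeR adjusted p = 0.0198) and 0.44 after loess (adjusted p = 0.000532). The peak at the start of ISW1, an ISWI ATPase, had 0.28 with TMM, not called (edgeR adjusted p = 0.0591), and -0.30 after loess (adjusted p = 0.00836).

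A list of 102 further genes of the same complexes had 62 peaks. Between days 7 and 10, 28 of these were higher and 12 lower with TMM (37.4% and 32.8% of all peaks), while after loess 15 were higher and 20 lower (29.8% and 30.1%). Between days 0 and 3, 1 was higher and 6 were lower, against 9.59% and 8.99% of all peaks. Of the 5 peaks of other COMPASS subunits and demethylases, 4 were higher between days 7 and 10 and 2 were after loess. All 5 peaks of other histone chaperones and elongation factors were higher, and 3 were after loess. Of the 11 peaks of NuA4, NuA3, SAS and Hat1 subunits, 4 were higher and 5 lower between these days, and after loess 2 and 5. Of the 10 peaks of other Rpd3, Hda1 and Set3 complex subunits, 2 were higher and 3 lower, and after loess 3 and 6. Other SWI/SNF and RSC subunits had 3 higher and 1 lower of 7 (1 and 4 after loess), and other SAGA subunits 3 and 1 of 7 (2 and 3). Other INO80 and SWR1 subunits had 4 and 2 of 12 (1 and 2), and ISW1 and ISW2 partners 3 and 0 of 5 (1 and 0). Each of these lists is read beside the same shares of all peaks, 37.4% higher and 32.8% lower with TMM, and 29.8% and 30.1% after loess.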

How the data were processed

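ATAC-seq libraries of 5 days, 2 per day, were analysed. Per the authors' notes, trimming used Trim Galore 0.5.0 and mapping to R64 used Bowtie2 2.2.9, and the authors called peaks with MACS2 2.1.1, merged them with BEDTools 2.30.0, annotated them with HOMER and counted reads with featureCounts 1.6.3. They deposited these raw counts per merged peak, and normalized counts, a signal in which each library's counts carry a single size factor. Handling of duplicate reads is not given in the sources used here. The members and lists were chosen with earlier results of these data known.

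Raw counts were tested with edgeR 4.0.16 in R 4.3.3 (TMM, filterByExpr, quasi-likelihood test, Benjamini-Hochberg at 0.05 over all 3515 peaks), fitting the 4 libraries of a pair of days at a time, or all 10 for the test over days. Loess offsets on peak abundance used a span of 0.3. Alternatives covered DESeq2 1.42.0, the fit, normalization, filters, thresholds, peak assignment and each library left out. Values are given in full for the 3 called member peaks per direction and comparison with the largest change and no overlap between days, and over all days for 10 catalytic members with a peak (SIR2, HDA1, RPD3, HOS2, SET1, SET2, DOT1, RTT109, STH1 and ISW2), and values of other members were added as a description. The fits were tested on simulated data, in which 200 of 3515 peaks were changed by 0.5 on the log2 scale. With TMM, edgeR recovered 178 of these for days 0 and 3, with 11 false calls. For days 7 and 10 it recovered 194, with 7 false calls. The simulated counts held no change that went with peak level, so these numbers do not cover calls under that trend. Libraries held 4748625 to 18693542 counts in peaks, and replicates of every day differed by more than counting noise. Sequences were read from the R64 assembly of RefSeq. The promoter window of 1 member and the matches to 1 motif are not reported here.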

Additional observations from a re-analysis of the deposited data

How the results depend on the processing

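The counts of called member peaks depended on the processing as follows. Counts over all 3515 peaks also moved with the settings and are given here or below. The shares of all peaks at an adjusted p under 0.01 or a change of 0.3 were not counted, so nothing is read from those member counts. Between days 0 and 3 (5 called) the count was 8 with total counts, 3 after loess, 3 at an adjusted p under 0.01, 3 for changes of 0.3 or more on the log2 scale, and 1 to 4 with 1 library left out. Between days 3 and 7 (3 called) it was 1 with all 10 libraries in 1 fit, 5 after loess, 1 at 0.01 and 1 at a change of 0.3. It was 7 of 48 with genes matched by the peak that holds their start (32.1% of all peaks were called). With 1 library left out it was 1 to 9. Between days 7 and 10 (18 called) it was 11 at a change of 0.3 and 32 of 48 by gene start (70.2% of all peaks were called). With 1 library left out it was 8 to 23, and over all 3515 peaks 1654 to 2820, against 2467 with none left out. Between days 0 and 7 (13 called) it was 7 at 0.01, 6 at a change of 0.3, and 3 to 18 with 1 library left out. Between days 0 and 28 (1 called) it was 0 with DESeq2, 4 with all 10 libraries in 1 fit, 4 after loess, 0 at 0.01, and 0 to 5 with 1 library left out. The test over 5 days (20 called) gave 13 at 0.01, and 15 to 21 with 1 library left out. Over all 3515 peaks that test gave 1899 to 2711 with 1 library left out, against 2503 with none left out. Between days 10 and 28 it was 0 under each alternative with 1 exception.

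That exception was a crossed pairing. The unprimed and primed labels of days 10 and 28 as a replicate block gave 0 calls, and the block with the labels crossed, added after seeing the data since deviations of same-labelled libraries had a correlation of -0.67 over peaks, gave 4 called member peaks (3 higher, 1 lower) and 533 over all peaks. The sources used here do not pair these libraries, and the other pairs of days tested share too few label suffixes for such a fit. Libraries of days 3, 10 and 28 are labelled unprimed and primed, those of day 0 b and c, and those of day 7 a and c.

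Over all peaks the count of calls moved by more than 1.5 times between days 0 and 3 (653, against 403 after loess, 1062 with total counts, and 120 to 801 with 1 library left out), between days 3 and 7 (1128, against 518 with all 10 libraries in 1 fit, and 404 to 1426), between days 0 and 7 (1585, against 387 to 2381 with 1 library left out), between days 0 and 28 (310, against 527 with all 10 libraries in 1 fit, and 32 to 742) and between days 10 and 28 (0, against 6 with DESeq2, 1 with all 10 libraries in 1 fit, and up to 12 with 1 library left out).

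Of 220 values of the 20 named fold changes under alternatives, 170 kept their call, 46 lost it and 4 changed sign. The sign changes were HST2 (0.15) and SNF6 (0.17) between days 7 and 10 and HST2 between days 0 and 7 (-0.025) after loess, and STH1 between days 7 and 10 (0.043) with total counts. The cause was not tested. With 2 libraries per day, replicate spread limits the precision more than depth does.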
